A study of Mus musculus with 6 samples.

Results

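Chemokine ligands were examined in RNA-seq counts from 6 libraries of mouse dendritic cells, the antigen-presenting cells that prime T cells. The set was every row of the count table annotated as protein_coding whose symbol began with Ccl or Cxcl and a number, or was Xcl1, Cx3cl1, Pf4 or Ppbp. This gave 46 of 54532 rows and 40 distinct symbols, of which 25 rows had enough counts to be tested, among 14174 genes tested. The groups were dendritic cells with the treatment label Control (control, 3 libraries) and dendritic cells treated with DB2313 (3 libraries). DB2313 is a small molecule that the study used to inhibit Spi1, the gene of the myeloid transcription factor PU.1. The labels name no genotype, strain, dose or duration of exposure, and nothing in them stated that the libraries of a group came from separate cultures or animals, so p-values measure only the spread between these libraries. The study text described macrophages where the labels gave dendritic cells. Columns of treated libraries were named for SPI1, and every direction rests on reading them as the DB2313 libraries.

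Chemokines bind G protein-coupled receptors on leukocytes and set up gradients along which the cells migrate. They are named CC, CXC, XC or CX3C by the spacing of cysteines near the start of the mature protein. Dendritic cells release inflammatory chemokines that draw monocytes and T cells, and mature dendritic cells are a known source of Ccl17 and Ccl22, the ligands of CCR4 on helper and regulatory T cells. Many chemokine genes lie side by side in clusters that arose by duplication, and in the mouse the largest hold CC ligands on chromosome 11 and CXC ligands on chromosome 5.

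Total counts per library were 16146743 to 19764677. Between replicates of a group the counts differed by more than sampling noise, with a chi-square per degree of freedom over all genes of 4.77 to 5.28 for control pairs and 7.43 to 17.7 for DB2313 pairs, and DB2313 replicates 1 and 3 stood farthest apart. Dendritic cell markers were present, with each of the 20 genes of the list counted in at least 1 library and a summed level of 15010 to 15360 CPM in control and 12790 to 14910 CPM with DB2313. CPM is the normalised read count per 1000000 counts of the library, after TMM scaling. Of 18 tested dendritic cell markers, Clec9a and Clec10a were higher and 3 were lower (Itgax, Irf4 and Batf3), which is 27.8% called, beside 4.66% of all genes tested higher and 5.94% lower. Macrophage markers, each of the 20 counted in at least 1 library, summed to 10620 to 12010 CPM in control versus 9517 to 10410 CPM with DB2313, with 11 of 18 tested lower and 3 higher (77.8% called). Neutrophil markers, each of the 15 counted in at least 1 library, summed to 5444 to 5999 and 5847 to 7344 CPM, with 5 of 15 tested higher and 1 lower (40% called). Mast cell and basophil markers summed to 2579 to 2784 and 2642 to 3148 CPM, with 2 of 11 tested higher (18.2% called) and Tpsab1 at 0. T and NK cell markers summed to 381 to 484 CPM in control versus 419 to 567 CPM with DB2313. The summed B cell, fibroblast, endothelial and erythroid and megakaryocyte markers were each at most 123 CPM in every library, with Col3a1, Dcn, Lum, Cldn5 and Gp1bb at 0. The part of these shifts in the values of the ligands was not tested. In bulk libraries, fewer cells of a type and less RNA per cell cannot be told apart.

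Of the 25 tested ligands, 2 were higher with DB2313 (Ccl4 and Ccl12) and 4 were lower (Ccl9, Ccl6, Cxcl16 and Cxcl3) at an adjusted p under 0.05 in edgeR's quasi-likelihood test with Benjamini-Hochberg adjustment over all genes tested. Among all 14174 genes tested, 4.66% were higher and 5.94% lower, against 8% and 16% of the ligands. The largest fall in a ligand was that of Ccl9, to 0.486 of its control level, whereas its neighbour Ccl6 fell to 0.858 and the most abundant ligand, Ccl22, did not pass the test. CPM values of the groups did not overlap for 6 of the 25 ligands (24.0%), against 27.4% of all genes tested. Cx3cl1, Cxcl10 and Ccl12 were higher in every DB2313 library, and Ccl9, Ccl6 and Cxcl16 were lower in every DB2313 library. The median log2 fold change of the ligands was -0.06, with 10 above and 15 below 0, beside 0.00082 over all genes tested. With an offset for gene length this median was -0.15, and without DB2313 replicate 3 it was 0.068.

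**Figure D1:**
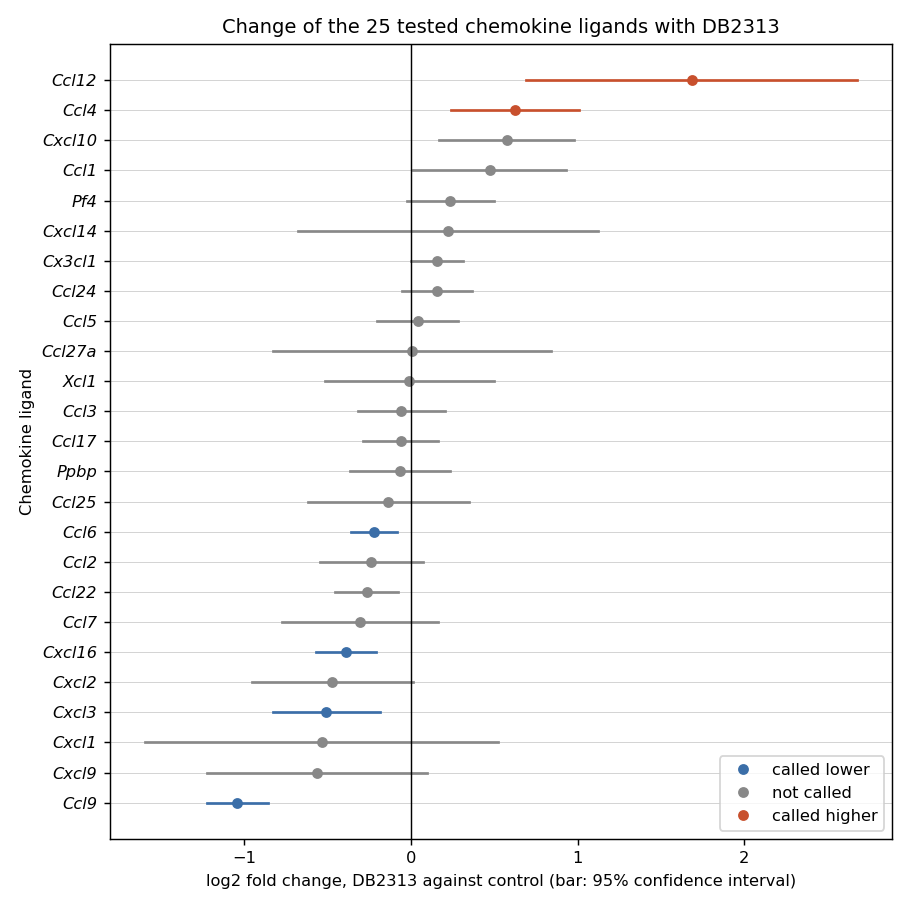
Log2 fold change of the 25 tested chemokine ligands, DB2313 against control (x axis, bars are 95% confidence intervals of the edgeR fit, colours mark calls at an adjusted p under 0.05). Ccl12 at 1.68 and Ccl4 at 0.62 were called higher, and Ccl9 at -1.04, Cxcl3 at -0.51, Cxcl16 at -0.39 and Ccl6 at -0.22 were called lower.

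All ligands together took 0.806%, 0.814% and 0.841% of the counts in the control libraries, and 0.779%, 0.713% and 0.630% with DB2313, in the order of the replicates. Each DB2313 library was below each control library. The summed mean CPM of the ligands was 8280 in control and 7035 with DB2313, a difference of -1245 CPM. Of it, Ccl22 contributed -655 CPM, Ccl9 -340.2 CPM, Ccl6 -241 CPM and Cxcl16 -64.9 CPM, while the ligands with a higher mean added 82.1 CPM in sum. Ccl22, Ccl6 and Ccl5 held most of the chemokine reads in every library, 81.2% to 82.4% in control and 83.9% to 84.4% with DB2313. These shares are descriptions and were not tested.

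Levels of different ligands were compared per gene length, as CPM divided by gene length in kilobases (RPKM). In control, Ccl22 stood highest at 1683 ± 117 RPKM, then Ccl5 at 1222 ± 61.5 and Ccl6 at 943.5 ± 43.8 RPKM (SD, n = 3 each), and the libraries of these 3 ligands did not overlap. Ccl17 (218 ± 4.50 RPKM) and Ccl9 (218 ± 2.65 RPKM) overlapped each other, as did Pf4 (97.6 ± 16.7) and Cxcl16 (90.8 ± 2.73 RPKM). With DB2313 the order of the first 4 stayed the same, but Ccl22 (1401 ± 189.6 RPKM) overlapped Ccl5 (1257 ± 262 RPKM). Ccl9, at 106 ± 14.7 RPKM with DB2313, now stood after Ccl17 and Pf4 (115 ± 17.3 RPKM), with its range apart from that of Ccl17 and overlapping that of Pf4.

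**Figure D2:**
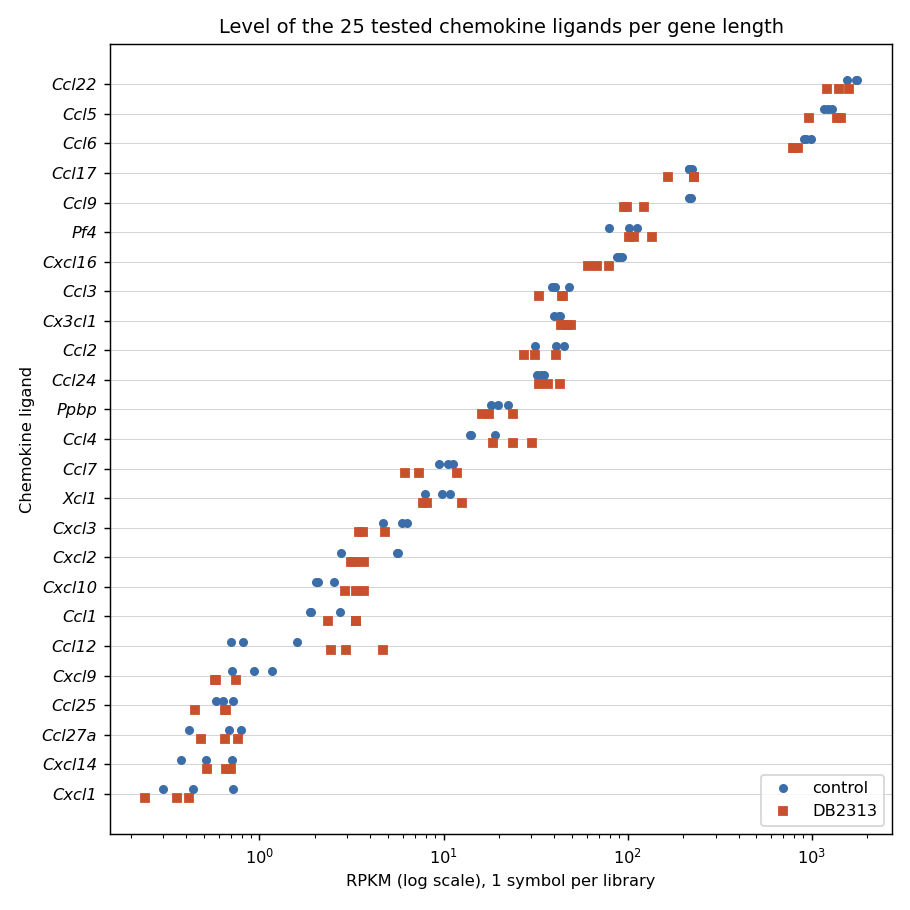
RPKM (x axis, log scale) of the 25 tested ligands in each library, circles for control and squares for DB2313, sorted by level. Ccl22, Ccl5 and Ccl6 lie near or above 800 RPKM in both groups, and Ccl9 moves from about the level of Ccl17 in control (218 RPKM) to 106 RPKM with DB2313.

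Among the inflammatory CC ligands, which act mainly on monocytes, macrophages, activated T cells and eosinophils, 9 were tested, of which 2 were higher and 2 lower. Ccl9 (ENSMUSG00000019122, chromosome 11, 83572919 to 83578636, minus strand), a mouse ligand of CCR1 known to draw dendritic cells and other myeloid cells, measured 656, 660.0 and 671 CPM in control versus 373, 302 and 291 CPM with DB2313, in the order of the replicates. Every DB2313 library was far below every control library, and the control values differed by little. The mean fell from 662 ± 8.08 to 322 ± 44.8 CPM (SD, n = 3 each), with a log2 fold change of -1.04 ± 0.09 (SE, edgeR adjusted p 2.57e-06). Across the 15 alternative settings it ranged from -1.16 to -0.97 and passed in each, with a highest adjusted p of 0.000132. Short stretches of 128 to 163 bp in the Ccl9 transcript match transcripts of 25 other genes at 95% identity or more, against a gene length of 3045 bp in the table.

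Ccl6 (ENSMUSG00000018927, chromosome 11, 83587882 to 83593087, minus strand), a related mouse ligand of CCR1 that lies 9245 bp from Ccl9 on the same strand, measured 1779, 1625 and 1676 CPM in control versus 1508, 1417 and 1436 CPM with DB2313. The groups did not overlap, but the gap between them was smaller than the range of the control libraries. The mean fell from 1694 ± 78.7 to 1453 ± 48.1 CPM (SD, n = 3), with a log2 fold change of -0.22 ± 0.07 (SE, edgeR adjusted p 0.0419). It passed in 10 of 15 alternatives. Among the fits without 1 library, the call was lost without control replicate 1, 2 or 3 or without DB2313 replicate 2 (adjusted p 0.0969 to 0.216), and over all alternatives its adjusted p ranged from 0.00377 to 0.216. The antisense gene E230016K23Rik spans Ccl6 with 66 to 112 counts per library, far below the 23890 to 28942 counts of Ccl6.

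The ratio of Ccl9 to Ccl6 counts was 0.368 to 0.406 in control and 0.203 to 0.248 with DB2313, ranges that did not overlap. With 3 libraries a group, the smallest p an exact permutation test can reach is 0.1, so this ratio and those that follow were not tested. The promoters of this pair are shown because the 2 genes lie side by side and both fell, Ccl9 by more. The sequences run from 250 bases before to 50 after the start annotated by RefSeq (GRCm38.p6), 5′ to 3′ along the gene. Both strands were searched for 4 motifs: GAGGAA, a purine-rich box of the kind PU.1 binds, GGAANNGAA, a composite of PU.1 and IRF half-sites, GGANTTTCC, a core of NF-kB sites, and GAAANNGAA, a core of interferon response elements. The composite and the interferon core can share letters with one another and with the purine box. Across all 32851 promoters of this length these occurred in 28.3%, 8.24%, 1.25% and 8.56%. None was found in the windows of Ccl9 and Ccl6, so both stand in lower case. Only these letters were searched, so other forms of such sites could still be present.
Ccl9 promoter, chr11:83578587-83578886, minus strand: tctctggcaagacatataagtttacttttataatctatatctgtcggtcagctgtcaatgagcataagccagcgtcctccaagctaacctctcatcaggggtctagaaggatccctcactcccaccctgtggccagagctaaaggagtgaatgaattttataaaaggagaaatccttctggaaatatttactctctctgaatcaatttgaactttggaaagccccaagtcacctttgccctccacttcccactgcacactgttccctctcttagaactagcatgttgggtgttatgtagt
Ccl6 promoter, chr11:83593038-83593337, minus strand: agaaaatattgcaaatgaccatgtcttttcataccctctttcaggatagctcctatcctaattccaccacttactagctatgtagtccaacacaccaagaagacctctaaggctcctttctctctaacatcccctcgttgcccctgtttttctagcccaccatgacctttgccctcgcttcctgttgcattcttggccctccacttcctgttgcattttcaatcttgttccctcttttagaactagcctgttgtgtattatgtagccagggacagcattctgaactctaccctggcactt

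Promoter sequences were found for 19 of the 25 tested symbols, in 22 entries. Ccl2, Ccl4, Ccl5, Ccl7, Ccl24 and Cxcl16 had none, so they were not searched. The purine box was present in 8 of the 22 (36.4%), the composite in 1 (4.55%), the NF-kB core in 4 (18.2%) and the interferon core in 5 (22.7%). Overlapping entries of Ccl27a hold the same purine box, which is counted in each of them. The NF-kB cores lay upstream of Cxcl1, Cxcl2, Cxcl3 and Cxcl10, all of them CXC ligands of chromosome 5. A match is a description of these letters and was not tested as a binding site.

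Ccl5 (ENSMUSG00000035042, chromosome 11), a ligand of CCR1 and CCR3 that lies 42400 bp from Ccl9, measured 1178, 1112 and 1230 CPM in control versus 1388, 1313 and 920.4 CPM with DB2313. DB2313 replicates 1 and 2 were above and replicate 3 below every control library. The log2 fold change was 0.04 (95% confidence interval -0.20 to 0.28) with an edgeR adjusted p of 0.879, and with a gene length offset it was -0.057. Without DB2313 replicate 3 it was 0.20 with an adjusted p of 0.0244, the lowest over the alternatives, which reached 0.985.

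Ccl3 and Ccl4 are the MIP-1 pair, made by activated myeloid cells, and lie 13228 bp apart on opposite strands. Ccl4 (ENSMUSG00000018930, chromosome 11, 83662584 to 83664683, plus strand) measured 9.16, 9.35 and 12.5 CPM in control versus 19.9, 15.8 and 12.2 CPM with DB2313. The highest control library overlapped the lowest DB2313 library. The mean rose from 10.3 ± 1.87 to 15.9 ± 3.83 CPM (SD, n = 3), with a log2 fold change of 0.62 ± 0.18 (SE, edgeR adjusted p 0.0367). It passed in 9 of 15 alternatives. Among the fits without 1 library, it was lost without control replicate 1 or 2 or DB2313 replicate 1 or 2 (adjusted p 0.0979 to 0.165), and over all alternatives the adjusted p ranged from 0.000942 to 0.165.

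Ccl3 measured 36.6, 29.8 and 30.7 CPM in control versus 33.6, 34.3 and 25.4 CPM with DB2313. Its groups overlapped, with a log2 fold change of -0.06 (95% confidence interval -0.32 to 0.20) and an edgeR adjusted p of 0.835. Its sign turned without control replicate 1 (0.041) or DB2313 replicate 3 (0.068). The ratio of Ccl4 to Ccl3 counts was 0.250 to 0.406 in control and 0.460 to 0.590 with DB2313, ranges that did not overlap.

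Ccl2, Ccl7 and Ccl12 are monocyte-attracting ligands of CCR2 encoded within one stretch of chromosome 11. Ccl12 (ENSMUSG00000035352, 82101845 to 82103400, plus strand) had 14, 7 and 6 counts in control and 26, 50 and 22 counts with DB2313, which was 0.861, 0.439 and 0.376 CPM against 1.58, 2.51 and 1.32 CPM. Each DB2313 library lay above each control library, at a level close to the limit of testing. The mean rose from 0.559 ± 0.263 to 1.803 ± 0.624 CPM (SD, n = 3), with a log2 fold change of 1.68 ± 0.46 (SE, edgeR adjusted p 0.0299). It passed in 11 of 15 alternatives. Among the fits without 1 library, it was lost without control replicate 2 or 3 or DB2313 replicate 2 (adjusted p 0.134 to 0.207), with a range of 0.0103 to 0.207 over all alternatives. Its promoter holds the purine box GAGGAA, beginning 130 bases before the start and shown in capitals.
Ccl12 promoter, chr11:82101595-82101894, plus strand: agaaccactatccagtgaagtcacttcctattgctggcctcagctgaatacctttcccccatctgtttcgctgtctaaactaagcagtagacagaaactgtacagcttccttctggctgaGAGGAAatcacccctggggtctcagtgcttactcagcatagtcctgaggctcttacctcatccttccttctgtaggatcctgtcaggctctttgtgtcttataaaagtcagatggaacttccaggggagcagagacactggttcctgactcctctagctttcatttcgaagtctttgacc

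Ccl2, the main CCR2 ligand, measured 51.2, 35.7 and 46.3 CPM in control versus 46.6, 35.6 and 31.0 CPM with DB2313. The groups overlapped, and the log2 fold change of -0.24 (95% confidence interval -0.54 to 0.072) had an edgeR adjusted p of 0.362. Ccl7, 8258 bp from Ccl2, had a mean of 8.33 ± 0.695 CPM in control versus 6.76 ± 2.40 CPM with DB2313 (SD, n = 3), with a log2 fold change of -0.31 ± 0.22 (SE, edgeR adjusted p 0.448). Without DB2313 replicate 1 both were called lower, Ccl2 at -0.41 (edgeR adjusted p 0.0242, the lowest over the alternatives, which reached 0.761) and Ccl7 at -0.62 (0.0445, likewise, up to 0.743). The ratio of Ccl12 to Ccl2 counts was 0.0081 to 0.0168 in control and 0.0339 to 0.0705 with DB2313, without overlap.

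Ccl24, an eotaxin that attracts eosinophils through CCR3, measured 41.8, 43.6 and 45.6 CPM in control versus 55.3, 47.9 and 42.7 CPM with DB2313. The groups overlapped through DB2313 replicate 3. Its log2 fold change was 0.16 (95% confidence interval -0.055 to 0.37), with an edgeR adjusted p of 0.384. The related eotaxins, Ccl11 and Ccl26, had no counts in any library.

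**Figure D3:**
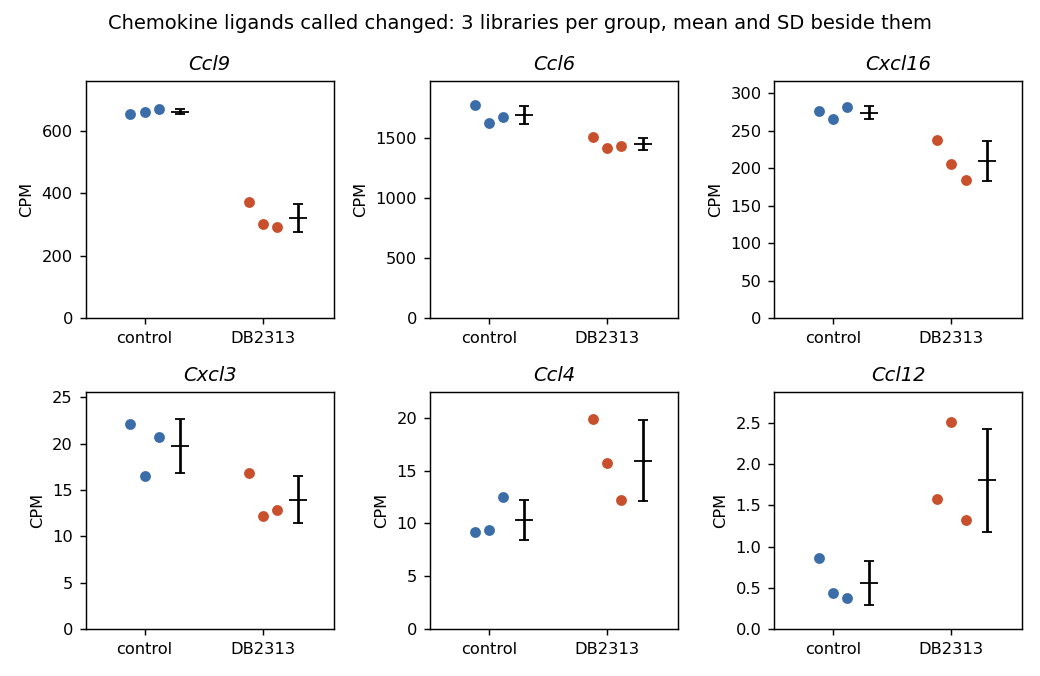
CPM (y axes, from 0) of the 6 chemokine ligands called changed, with 1 point per library and the mean and SD beside them (n = 3 per group). The groups are apart for Ccl9, Ccl6, Cxcl16 and Ccl12, and overlap for Cxcl3 and Ccl4.

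Among CC ligands for the homing of T cells and dendritic cells, 5 were tested and none passed in edgeR, while 1 was higher (Ccl1) and 1 lower (Ccl22) at an unadjusted p under 0.05, and DESeq2 called 1 lower (Ccl22). Ccl22 (ENSMUSG00000031779, chromosome 8, 94745590 to 94751699, plus strand), 47.2% of the summed control CPM of all ligands, measured 3600, 4056 and 4081 CPM in control versus 3705, 3242 and 2824 CPM with DB2313. DB2313 replicate 1 lay above control replicate 1, and the other DB2313 libraries below every control library. The means were 3912 ± 271 and 3257 ± 441 CPM (SD, n = 3), with a log2 fold change of -0.26 (95% confidence interval -0.45 to -0.075) and an edgeR adjusted p of 0.0734. It passed in 5 of 15 alternatives, among them DESeq2 (adjusted p 0.0367) and the fit without DB2313 replicate 1 (0.00112), with a range up to 0.287.

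Ccl17, the other CCR4 ligand, measured 115, 111 and 111 CPM in control versus 118, 118 and 85.5 CPM with DB2313. DB2313 replicates 1 and 2 were above and replicate 3 below all control libraries. Its log2 fold change was -0.06 (95% confidence interval -0.28 to 0.16), with an edgeR adjusted p of 0.788, and without DB2313 replicate 3 it was 0.079. The ratio of Ccl17 to Ccl22 counts overlapped between groups, at 0.0272 to 0.0319 in control and 0.0303 to 0.0365 with DB2313.

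The remaining tested homing ligands were low. Ccl1, a ligand of CCR8, had a mean of 5.14 ± 1.14 CPM in control versus 7.13 ± 1.34 CPM with DB2313 (SD, n = 3), with a log2 fold change of 0.47 ± 0.22 (SE, edgeR adjusted p 0.198). Ccl25, a ligand of CCR9 best known from thymus and gut, was at 4.79 ± 0.516 and 4.36 ± 0.886 CPM (adjusted p 0.784), and the skin chemokine Ccl27a at 1.499 ± 0.463 and 1.51 ± 0.343 CPM (adjusted p 0.993, edgeR). Ccl27a is uncertain, since it shares up to 766 bp at 95% identity or more with 6 other genes, Ccl27b among them. The row of Ccl1 spans 82176657 to 82305690 on chromosome 11. Ccl25 overlaps the far more counted Elavl1 (1256 to 1600 counts per library) on the opposite strand, and whether counting used the strand was not stated.

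Among CXC ligands that attract neutrophils through CXCR2 and those stored in platelets, 5 were tested and 1 passed. Cxcl3 (ENSMUSG00000029379, chromosome 5, 90786103 to 90789600, plus strand), a neutrophil attractant, measured 22.1, 16.5 and 20.7 CPM in control versus 16.9, 12.1 and 12.9 CPM with DB2313. The highest DB2313 library overlapped the lowest control library. The mean fell from 19.8 ± 2.93 to 13.96 ± 2.56 CPM (SD, n = 3), with a log2 fold change of -0.51 ± 0.15 (SE, edgeR adjusted p 0.0425). The call was lost without control replicate 1 or 3 or DB2313 replicate 2 (adjusted p 0.144 to 0.207) and with scaling by library totals (0.0555), with a range of 0.0025 to 0.207 over all alternatives.

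Cxcl2, closely related to Cxcl3, measured 11.6, 5.77 and 11.7 CPM in control versus 7.65, 6.52 and 6.85 CPM with DB2313. Control replicate 2 was the lowest of all libraries, and the other control libraries were the highest. The log2 fold change was -0.47 (95% confidence interval -0.95 to 0.016), with an edgeR adjusted p of 0.232. Without control replicate 2 it was -0.73 with an edgeR adjusted p of 0.0271, the lowest over the alternatives, which reached 0.581. Cxcl2 and Cxcl3 share a stretch of 116 bp at 98.3% identity, so a small part of their reads could be split. Cxcl1, also a neutrophil attractant, was near the limit of testing at 9 to 22 counts per library, with a log2 fold change of -0.53 ± 0.50 (SE, edgeR adjusted p 0.578).

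The promoters of Cxcl3 and Cxcl2 are shown as relatives with the same NF-kB core, GGAATTTCC, beginning 72 and 96 bases before the start. The capitals in Cxcl3 mark in addition GGAAGGGAA, a match to the composite of PU.1 and IRF half-sites at 173 bases before the start, and in Cxcl2 the reverse complement of the purine box just after it. Cxcl3 was the 1 ligand promoter of 22 that held the composite.
Cxcl3 promoter, chr5:90785851-90786150, plus strand: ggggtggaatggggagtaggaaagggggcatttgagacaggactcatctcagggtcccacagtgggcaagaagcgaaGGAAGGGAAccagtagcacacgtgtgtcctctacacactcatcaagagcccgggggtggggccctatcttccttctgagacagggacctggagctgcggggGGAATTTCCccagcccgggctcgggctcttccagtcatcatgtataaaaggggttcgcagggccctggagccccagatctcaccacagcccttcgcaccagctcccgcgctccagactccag
Cxcl2 promoter, chr5:90903649-90903948, plus strand: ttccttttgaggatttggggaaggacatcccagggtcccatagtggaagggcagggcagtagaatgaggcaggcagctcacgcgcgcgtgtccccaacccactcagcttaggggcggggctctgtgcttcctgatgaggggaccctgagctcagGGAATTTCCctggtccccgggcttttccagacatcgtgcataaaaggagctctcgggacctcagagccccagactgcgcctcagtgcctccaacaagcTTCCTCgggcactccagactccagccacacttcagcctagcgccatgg

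Pf4 and Ppbp encode chemokines of platelet granules and lie 2371 bp apart. Pf4 measured 80.7, 57.2 and 73.3 CPM in control versus 97.1, 73.5 and 78.3 CPM with DB2313, with a log2 fold change of 0.24 (95% confidence interval -0.025 to 0.50) and an edgeR adjusted p of 0.267. Ppbp measured 24.1, 19.5 and 21.5 CPM in control versus 25.7, 19.1 and 17.6 CPM with DB2313, with a log2 fold change of -0.07 (95% confidence interval -0.37 to 0.24) and an edgeR adjusted p of 0.837. The sign of Ppbp turned without control replicate 1 (0.018) or DB2313 replicate 3 (0.041). Both overlapped between groups. The summed erythroid and megakaryocyte markers stood at 110.9 to 113 CPM in control versus 108 to 123 CPM with DB2313.

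The interferon-inducible ligands Cxcl9 and Cxcl10 attract activated T cells through CXCR3, lie 18558 bp apart on chromosome 5 and were both tested. Neither passed in edgeR, DESeq2 or limma-voom, and 1, Cxcl10, had an unadjusted edgeR p under 0.05. Cxcl10 measured 5.72, 4.58 and 4.70 CPM in control versus 7.53, 6.57 and 8.29 CPM with DB2313. Every DB2313 library was above every control library, with a log2 fold change of 0.57 ± 0.19 (SE, 95% confidence interval 0.17 to 0.98) and an edgeR adjusted p of 0.0684. It passed in none of the 15 alternatives. Cxcl9 was at 2.83 ± 0.690 CPM in control versus 1.92 ± 0.287 CPM with DB2313 (SD, n = 3), with a log2 fold change of -0.56 ± 0.31 (SE, edgeR adjusted p 0.30). The ratio of Cxcl10 to Cxcl9 counts was 1.30 to 2.21 in control and 3.35 to 4.76 with DB2313, ranges that did not overlap. The Cxcl10 promoter is shown as the 1 ligand window with both the interferon core GAAAGTGAA and an NF-kB core, GGAAATTCC, which begin 213 and 158 bases before the start.
Cxcl10 promoter, chr5:92348840-92349139, minus strand: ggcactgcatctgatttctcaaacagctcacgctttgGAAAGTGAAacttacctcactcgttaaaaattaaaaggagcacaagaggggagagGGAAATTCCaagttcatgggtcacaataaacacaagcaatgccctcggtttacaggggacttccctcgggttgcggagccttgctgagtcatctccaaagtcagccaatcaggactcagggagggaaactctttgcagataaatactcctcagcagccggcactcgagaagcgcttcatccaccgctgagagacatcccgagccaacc

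Of the membrane-anchored ligands, Cxcl16 (ENSMUSG00000018920, chromosome 11, 70453983 to 70459984, minus strand) binds CXCR6 on T cells and also acts as a scavenger receptor for oxidised lipoprotein. It measured 276, 266 and 282 CPM in control versus 238, 206 and 185 CPM with DB2313. All DB2313 libraries were below all control libraries. The mean fell from 274 ± 8.25 to 209.5 ± 26.9 CPM (SD, n = 3), with a log2 fold change of -0.39 ± 0.08 (SE, edgeR adjusted p 0.00789). It passed in 13 of 15 alternatives and was lost without control replicate 3 (adjusted p 0.0565) or DB2313 replicate 2 (0.0589, the highest over the alternatives). Cxcl16 overlaps Zmynd15 on the opposite strand over 552 bp. Zmynd15 had 237 to 424 counts per library against 3072 to 4493 for Cxcl16, and its log2 fold change was -0.55 ± 0.13 (SE, edgeR adjusted p 0.0114).

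Cx3cl1 (ENSMUSG00000031778, chromosome 8), the sole ligand of CX3CR1, lies between Ccl22 and Ccl17. It measured 156, 166 and 169 CPM in control versus 185, 192 and 171 CPM with DB2313. The groups did not overlap, with DB2313 replicate 3 just above control replicate 3. Its log2 fold change of 0.16 ± 0.07 (SE) had an edgeR p of 0.0451 before and 0.201 after adjustment. Without DB2313 replicate 3 the adjusted p was 0.0448, the lowest over the alternatives, which reached 0.564. Xcl1, lymphotactin, which draws cross-presenting dendritic cells through XCR1, was at 4.98 ± 0.771 CPM in control versus 4.97 ± 1.43 CPM with DB2313 (SD, n = 3), with a log2 fold change of -0.0076 (95% confidence interval -0.51 to 0.50) and an edgeR adjusted p of 0.990. Its sign turned with library totals (0.012), with no filter (0.0022) and without control replicate 1 or 3 or DB2313 replicate 2 or 3 (0.019 to 0.12). The homeostatic ligand Cxcl14 was tested on 11 to 21 counts per library, with a log2 fold change of 0.22 ± 0.42 (SE, edgeR adjusted p 0.809).

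On chromosome 11, Ccl9 and Ccl6, both called lower, lie between Ccl5 and Ccl3, which did not pass the test. Ccl4, next to Ccl3, was called higher, though its groups overlapped. Ccl9 passed in 15 of 15 alternatives, Ccl6 in 10 and Ccl4 in 9.

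**Figure D4:**
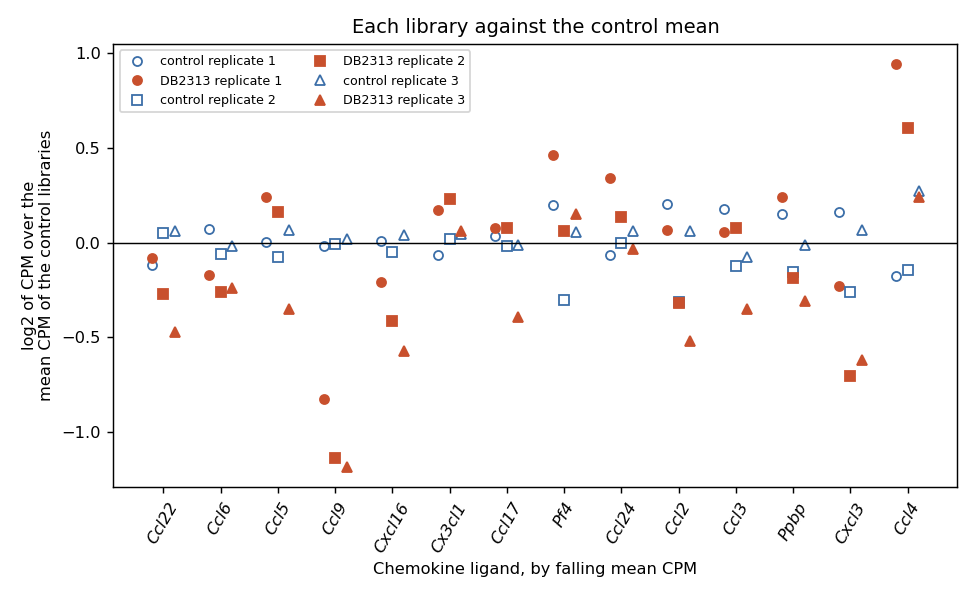
Log2 ratio of the CPM in each library to the mean CPM of the control libraries (y axis) for the 14 ligands with a mean of at least 10 CPM, open symbols for control and filled symbols for DB2313. DB2313 replicate 3 (filled triangles) is the lowest DB2313 library for 11 of the 14 ligands and replicate 1 (filled circles) the highest for 11, also for Ccl9, where all 3 lie below -0.8.

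The DB2313 libraries differed among themselves in their chemokine levels. Among the 14 ligands with a mean of at least 10 CPM, DB2313 replicate 1 was the highest DB2313 library for 11 and replicate 3 the lowest for 11. The median log2 ratio to the control mean over these 14 was 0.074, -0.061 and -0.35 in DB2313 replicates 1 to 3. Of all 25 tested ligands, replicate 3 was the lowest DB2313 library for 17 (68.0%), against 36.6% of all genes tested, and the lowest of all 6 libraries for 11 (44.0%), against 18.2%. Between DB2313 replicates the coefficient of variation of Ccl22, Ccl5 and Ccl17 was 13.5%, 20.8% and 17.6%, against 6.93%, 5.03% and 2.06% in control. For Ccl6 it was 3.31% with DB2313 and 4.64% in control. The summed dendritic cell markers followed the same order, at 14910, 13910 and 12790 CPM in DB2313 replicates 1 to 3, and the summed neutrophil markers likewise at 7344, 6315 and 5847 CPM. The same order held for the mast cell and basophil marker sums (3148, 3017 and 2642 CPM). So it did for the T and NK cell markers (567, 490.5 and 419 CPM). Fibroblast sums (100.4, 88.9 and 76.9 CPM) and erythroid and megakaryocyte sums (123, 111.1 and 108.2 CPM) also fell in this order. It did not hold for the macrophage markers (9747, 9517 and 10410 CPM). B cell sums (8.80, 7.62 and 9.01 CPM) and endothelial sums (95.3, 101.2 and 108.2 CPM) did not follow it either. The part of these marker sums in the spread of the ligands was not tested.

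The other 21 rows did not enter the test. No count was found in 14 rows, 7 of them on scaffolds (Ccl21b, Ccl21c, Ccl27a, Ccl19 and Ccl21a) and 7 on chromosomes (Ccl11, Ccl19, Ccl20, Ccl21a, Ccl21b, Ccl26 and Cxcl15). For such a row, 0 of 101307050 counts allows a level of up to 0.0296 CPM, which covers counting error only. For Ccl19, Ccl21a, Ccl21b, Ccl21c and Ccl27a, which have copies in the table, this limit would not hold if reads with several matches were left out of the counting, and that was not stated. Ccl19, Ccl21a and Ccl21b are the CCR7 ligands that guide dendritic cells into lymph nodes, and Ccl20 is the CCR6 ligand of epithelia. The remaining 7 rows had few counts. Cxcl5, a neutrophil attractant, had 4 to 11 counts per library and Ccl28, a mucosal ligand, 0 to 8. Cxcl12, the stromal ligand of CXCR4, and Ccl8, a monocyte attractant, had 4 counts each in DB2313 replicate 1 and none elsewhere. Cxcl17 had 2 counts in 1 control library, and Ccl27b and the B cell attractant Cxcl13 had 1 count each in 1 DB2313 library. Cxcl11, with 0 to 7 counts, is annotated in the table as a polymorphic_pseudogene and stood outside the set.

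Receptors of these ligands were compared in the same fit. Of 24 listed receptors 18 were tested, 2 were lower and none was higher in edgeR, also none at an unadjusted p under 0.05 or in DESeq2. This was 11.1% called, close to the 10.6% of all genes tested. Cx3cr1, the receptor of Cx3cl1, fell from 11.01 ± 0.267 to 4.56 ± 0.982 CPM (SD, n = 3; log2 fold change -1.26 ± 0.18, SE, edgeR adjusted p 0.000403). It is also found on macrophages, whose markers were lower for 11 of 18 tested genes, and the part of this in the receptor value was not tested.

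Among 35 genes of receptors, signalling adaptors and transcription factors that induce chemokine transcription, all tested, 4 were higher and 7 lower. Among the higher ones were Ifngr1, a chain of the interferon gamma receptor (log2 fold change 0.38), Irf7 (0.42), a factor of interferon responses, and Il1r1, the interleukin 1 receptor (0.95, from 3.45 to 6.63 CPM). The lower ones were Nfkb2 (-0.32), Relb (-0.38) and Rel (-0.36), subunits of NF-kB, Irf5 (-0.25), Irf4 (-0.43), Fos (-0.63), a subunit of AP-1, and Il4ra (-0.23), the interleukin 4 receptor chain. Their edgeR adjusted p ranged from 0.0018 for Irf4 to 0.0401 for Il4ra, and the groups did not overlap for any of the 11. Over the whole list, called or not, the groups did not overlap for 9 genes higher and 12 genes lower with DB2313. Among all genes tested, the groups did not overlap for 27.4%. Irf4 is also a member of the dendritic cell marker list.

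Of 17 tested genes that limit chemokine transcripts or their induction, 6 were lower and none was higher in edgeR, also none at an unadjusted p under 0.05 or in DESeq2. Bcl3, an atypical inhibitor of NF-kB, fell from 66.1 ± 1.76 to 39.7 ± 3.23 CPM (SD, n = 3; edgeR adjusted p 6.77e-05). Zfp36l1, which binds AU-rich elements and promotes mRNA decay, fell from 155 ± 0.944 to 103 ± 15.5 CPM (edgeR adjusted p 0.000893). Il10ra, Tnip1, Nfkbib and Dusp1 were lower by smaller amounts, with log2 fold changes of -0.24, -0.27, -0.31 and -0.30.

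Of 17 tested genes for the processing and shedding of chemokines, proteases apart from the deiminases Padi2 and Padi4, 5 were higher and 1 lower. Mmp12, the macrophage elastase, which trims several CC and CXC ligands, rose from 619 ± 51.6 to 1219 ± 69.6 CPM (SD, n = 3; log2 fold change 0.98 ± 0.08, SE, edgeR adjusted p 1.34e-06). Mmp8 rose from 324 ± 37.7 to 636 ± 61.4 CPM (edgeR adjusted p 7.74e-06), Elane by 0.69, Ctsl by 0.38 and Ctsg by 0.33 on the log2 scale. Mmp8, Elane and Ctsg are also neutrophil markers, a list with a summed level higher in DB2313 replicates 1 and 2 than in any control library. Mmp14, a membrane-bound protease, fell from 108 ± 4.34 to 61.4 ± 5.998 CPM (edgeR adjusted p 2.2e-05). The shares called were 31.4% of the inducers, 35.3% of the limiting genes and 35.3% of the processing genes, beside 24.0% of the ligands, 11.1% of the receptors and 10.6% of all genes tested, and these lists were not tested against each other.

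**Figure D5:**
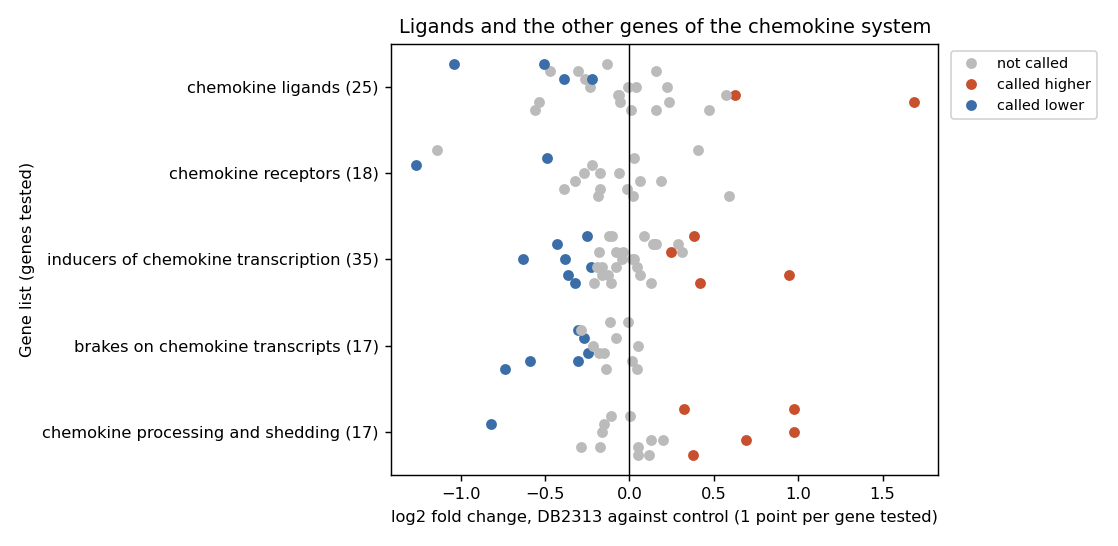
Log2 fold change with DB2313 (x axis) of each tested ligand and of each tested gene of 4 related lists, 1 point per gene, with the vertical spread only for legibility. Ligands and inducers have calls on both sides, the receptors and limiting genes only below 0, and 5 of the 6 called processing genes, all proteases, lie above 0.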

How the data were processed

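RNA-seq counts of 3 control and 3 DB2313 dendritic cell libraries were analysed. The authors deposited gene counts as raw reads, unpooled and not normalised, in 1 table with gene lengths. The submitters' processing notes name CASAVA 1.8, HISAT2 2.0.5 and featureCounts 1.5.0-p3, whereas the methods of the study name LifeScope. Strandedness and the treatment of multiply mapped reads were not stated. Of 54495 identifiers shared with GENCODE M21 (GRCm38), 98.33% had the same coordinates, as did all 46 ligands, and positions are given on that build. Columns named BMDC and SPI1 were read as control and DB2313.

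All genes were fitted with edgeR 4.0.16 (R 4.3.3): filterByExpr, TMM, prior count 0.125, a quasi-likelihood test of the group alone, and Benjamini-Hochberg adjustment across 14174 genes. CPM and RPKM use TMM-scaled library sizes. The scripts were tested on simulated data. The ligands and the gene lists were chosen with earlier results of these data known. All tested ligands are named, those called or with a mean of at least 10 CPM with every library, and of the other lists only called genes. Same-numbered replicates were not paired (correlations of deviations -0.0196, -0.0166 and -0.178). Alternatives were DESeq2 1.42.0, limma-voom (limma 3.58.1), other scaling and filters, a gene length offset (lowess span 0.3), a replicate block and the omission of each library. Shared stretches were searched with blastn 2.17.0 (95% identity, 100 bp). The labels gave no batch. The values of some called genes of the other lists are not reported here.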

Additional observations from a re-analysis of the deposited data

How the results depend on the processing

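Of the 6 called ligands, Ccl9 passed in 15 of 15 alternatives, Cxcl16 in 13, Cxcl3 and Ccl12 in 11, Ccl6 in 10 and Ccl4 in 9, and none of the 6 changed direction in any of them. Leaving out 1 library at a time gave 0 to 4 ligands higher and 1 to 7 lower, against 2 and 4 with all libraries, and 328 to 1097 genes higher and 411 to 1311 lower overall. No ligand was higher without control replicate 2 or DB2313 replicate 2, and 4 were without DB2313 replicate 3 (Ccl4, Ccl12, Ccl5 and Cx3cl1). Ccl9 alone was lower without control replicate 3 or DB2313 replicate 2, Ccl9 and Cxcl16 without control replicate 1, and 7 ligands were lower without DB2313 replicate 1 (Ccl22, Ccl2 and Ccl7 in addition). Without control replicate 2, 4 ligands were lower (Ccl9, Cxcl16, Cxcl3 and Cxcl2). With the replicate number as a replicate block, 1 ligand was higher (Ccl12) and 3 lower, the adjusted p of Ccl6 was 0.158 and that of Ccl4 0.0541, and 502 genes were higher and 629 lower overall. With the replicate block and the gene length offset together, 0 ligands were higher and 6 lower, with an adjusted p of 0.0585 for Ccl4 and 0.0574 for Ccl12. For 7 ligands that did not pass, the log2 fold change lay near 0 and changed sign. Ccl5 turned to -0.057 with the length offset and -0.067 with both, and ranged from -0.069 to 0.20 over the omissions. Ccl27a turned to -0.031 and -0.015 in the same settings and ranged from -0.22 to 0.21. Xcl1 turned to 0.012 with library totals and 0.0022 without a filter, and ranged from -0.26 to 0.12. Over the omissions, Ccl17 ranged from -0.14 to 0.079, Ccl3 from -0.13 to 0.068, Ppbp from -0.24 to 0.041 and Ccl25 from -0.22 to 0.023. Fits without 1 library have fewer samples, and the other causes were not tested. Scaling by library totals gave 731 genes higher and 703 lower, against 661 and 842.

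With 3 libraries per group, Ccl12, Ccl27a, Cxcl14 and Cxcl1 rest on 6 to 50 counts per library. For ligands that did not pass, the p does not show that the groups were equal. Whether the libraries are separate cultures, the dose and the time of treatment are not given in the labels.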

Other observations

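Between replicates of a group, the chemokine ligands differed by more than sampling noise, as did all genes. The chi-square per degree of freedom over the ligands was 6.57 to 30.5 for control pairs and 10.1 to 35.2 for DB2313 pairs. This statistic grows with the count, so it is not set against that of all genes. In control replicates 1 and 2, the control pair with the highest value, Ccl22 stood at 3600 and 4056 CPM and Ccl6 at 1779 and 1625 CPM. Both were chosen after their values were seen.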
